A study of Mus musculus with 4 samples.

Results

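The tricarboxylic acid cycle and the control of pyruvate entry into it were described in brown adipose tissue of Ebf2 KO and WT mice through 34 genes of the 12165 listed. The genes were taken by symbol from a list of 35, of which Pdpr was not analysed here. They encode the mitochondrial pyruvate carrier, the pyruvate dehydrogenase complex with its kinases and phosphatases, pyruvate carboxylase, the enzymes of the cycle and some cytosolic or NADP-dependent counterparts.

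Brown adipose tissue is the heat-producing form of fat, and its cells are packed with mitochondria. Pyruvate from glycolysis enters the mitochondrion through the pyruvate carrier and becomes acetyl-CoA by pyruvate dehydrogenase, which kinases switch off and phosphatases switch on. The cycle then oxidises acetyl units, from pyruvate or from fatty acids, and hands the electrons to the respiratory chain. EBF2 is a transcription factor of brown fat cells and their precursors.

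The animals were Ebf2 KO mice (2 libraries) and WT mice (2 libraries), all aged 8 weeks, of mixed strain, on chow at room temperature. Polyadenylated RNA of the whole tissue was sequenced. The labels do not give the deleted part of Ebf2, the sex of the mice or whether a library came from 1 animal or a pool, so p-values measure the spread between these libraries only. Levels are RPKM, which are reads scaled to the length of the gene and the total of the library.

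Ebf2 itself was at 0.391 and 0.352 RPKM in the Ebf2 KO libraries, against 2.97 and 2.63 RPKM in the WT libraries. The library totals, recovered from the RPKM values and not uniquely fixed by them, were 162782640 to 199678916 reads. On these totals the listed genes held at least 58.0% and 60.6% of the reads in Ebf2 KO, against 42.5% and 44.7% in WT. Each member had at least 122 reads in every library. Ebf2 KO replicate 2 stood apart in Xist, the RNA of the inactive X chromosome, with 0.0353 RPKM, against 5.49 RPKM in Ebf2 KO replicate 1 and 5.05 and 6.19 RPKM in WT. The defining genes of brown fat cells were low in the Ebf2 KO tissue: all 5 markers (Ucp1, Cidea, Cox8b, Elovl3 and Dio2) fell. Every listed gene reached at least 0.502 RPKM in some library. Dio2 (0.105 and 0.128 RPKM in Ebf2 KO, against 37.2 and 24.7 RPKM in WT) and Ebf2 did so in the WT libraries only. Their place in the table thus already required a difference of this direction, and their falls are given as a description. Ucp1, the uncoupling protein that makes heat, was at 7.39 and 2.86 RPKM in Ebf2 KO, against 5018 and 5733 RPKM in WT, and the summed level of the 5 was 888.6 and 271 RPKM in Ebf2 KO, against 9904 and 10183 RPKM in WT. Of 5 general adipocyte markers 3 rose and 0 fell, with sums of 28941 and 26279 RPKM in Ebf2 KO, against 18686 and 13557 RPKM in WT. Of 10 skeletal muscle markers 7 rose and 0 fell, with sums of 7751 and 8121 RPKM in Ebf2 KO, against 808 and 2062 RPKM in WT. All 5 fibroblast markers also rose, with sums of 1075 and 1897 RPKM in Ebf2 KO, against 192 and 433 RPKM in WT. After centring 0 adipocyte, 6 muscle and 4 fibroblast markers rose, against 8.42% of all genes. Over all genes 24.4% rose on RPKM and 3.54% fell. Of 4 macrophage markers 1 (Csf1r) rose on RPKM, near the share over all genes, and it also rose after centring. On RPKM 0 of 5 endothelial markers passed the test in either direction. In whole tissue, fewer cells of a type and less RNA per cell cannot be told apart, and the part of these cell types in the values below was not tested.

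Sequences upstream of 3 members are shown because these members had the largest falls (Pdk4 and Sucla2) or held a searched motif near the start of transcription (Ogdh). They are from RefSeq (GRCm38.p6) and are given 5′ to 3′ on the strand of the gene. Pdk4 and Sucla2 are shown over the 250 bases before the start site (chr6:5496279-5496528, minus strand, and chr14:73552536-73552785, plus strand), and Ogdh over 55 bases around it (chr11:6292120-6292174, plus strand), where capitals mark AAGGTCA read on the other strand.
Pdk4: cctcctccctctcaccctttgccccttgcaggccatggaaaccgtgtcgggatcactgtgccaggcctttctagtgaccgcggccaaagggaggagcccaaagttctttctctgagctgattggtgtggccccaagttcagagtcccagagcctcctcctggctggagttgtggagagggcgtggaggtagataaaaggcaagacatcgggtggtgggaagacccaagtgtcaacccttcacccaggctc
Sucla2: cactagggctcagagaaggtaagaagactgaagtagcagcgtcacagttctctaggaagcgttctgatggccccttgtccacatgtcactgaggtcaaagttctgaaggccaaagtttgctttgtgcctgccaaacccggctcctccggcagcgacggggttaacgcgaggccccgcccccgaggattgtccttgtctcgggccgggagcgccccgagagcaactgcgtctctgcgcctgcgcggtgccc
Ogdh: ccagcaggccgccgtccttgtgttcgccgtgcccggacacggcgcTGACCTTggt
Among the 31 members with a promoter of 300 bases in the table, 0 held the EBF motif (TCCC, any 2 bases, then GGGA) and 0 the NRF1 motif (GCGCA directly followed by TGCGC), and 2 (Ogdh and Sdhd) held AAGGTCA, the element of estrogen-related receptors. Counted per gene in the same way, 1.27%, 2.30% and 3.92% of the 8951 listed genes with a promoter held these motifs, searched on both strands. Of all 32851 promoters the shares were 0.904%, 0.971% and 4.72%. The 41 member promoters had a median of 62.0% G and C and 21 CpG dinucleotides, against 60.7% and 20 in the promoters of all listed genes. The Pdk4 promoter, at 60.7% G and C, held 12 CpG dinucleotides and the Sucla2 promoter 24.

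Setting Ebf2 KO against WT tissue addresses how RNA of this pathway differs when Ebf2 is disrupted. RNA for most of the cycle and for the pyruvate dehydrogenase complex was lower in the Ebf2 KO tissue, with the deepest falls in Pdk4 (13.9-fold), Sucla2 (7.90-fold), Suclg1 (4.64-fold) and Idh3a (4.48-fold). On RPKM, pyruvate carboxylase (Pcx), cytosolic aconitase (Aco1) and cytosolic isocitrate dehydrogenase (Idh1) were higher, by 2.67-fold, 2.20-fold and 2.18-fold. With library medians made equal, none of these rises passed (limma adjusted p = 0.0702, 0.217 and 0.268). None passed in the authors' deposited table either (FDR 0.101, 0.421 and 0.473), while Pcx passed with quantile normalization (limma adjusted p = 0.0187). The members together summed to 3303 and 3179 RPKM in the Ebf2 KO libraries, against 6951 and 7439 RPKM in the WT libraries. That was 0.782% and 0.769% of the summed RPKM of all listed genes in Ebf2 KO, against 2.09% and 2.39% in WT.

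By limma on log2(RPKM + 1), 21 of the 34 members fell and 3 rose at an adjusted p under 0.05, and 10 passed in neither direction. Over all 12165 genes 3.54% fell and 24.4% rose. The groups did not overlap for 32 members, of which 25 lay below WT in both Ebf2 KO libraries and 7 above, against 9.3% below and 65.4% above over all genes. Pdp2, whose place in the table already required a difference of this direction, is among the 21 and the 25. It is also among the lower members in each later count of this paragraph. The median log2 fold change was -0.89 for the members and 0.45 for all genes. Because most genes shifted upward on RPKM, each library was also centred on its median, which lowers every log2 fold change by 0.52. After centring 23 members fell and 0 rose (10.3% and 8.42% of all genes), and all 21 members that fell on RPKM were among the 23. The authors' deposited table had 25 members lower and 0 higher at an FDR under 0.05 (10.5% and 10.9% of all genes). Quantile normalization gave 24 lower and 1 higher (8.3% and 8.61% of all genes), and voom on reads recovered from the RPKM gave 24 and 0 (8.4% and 7.94%).

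**Figure D1:**
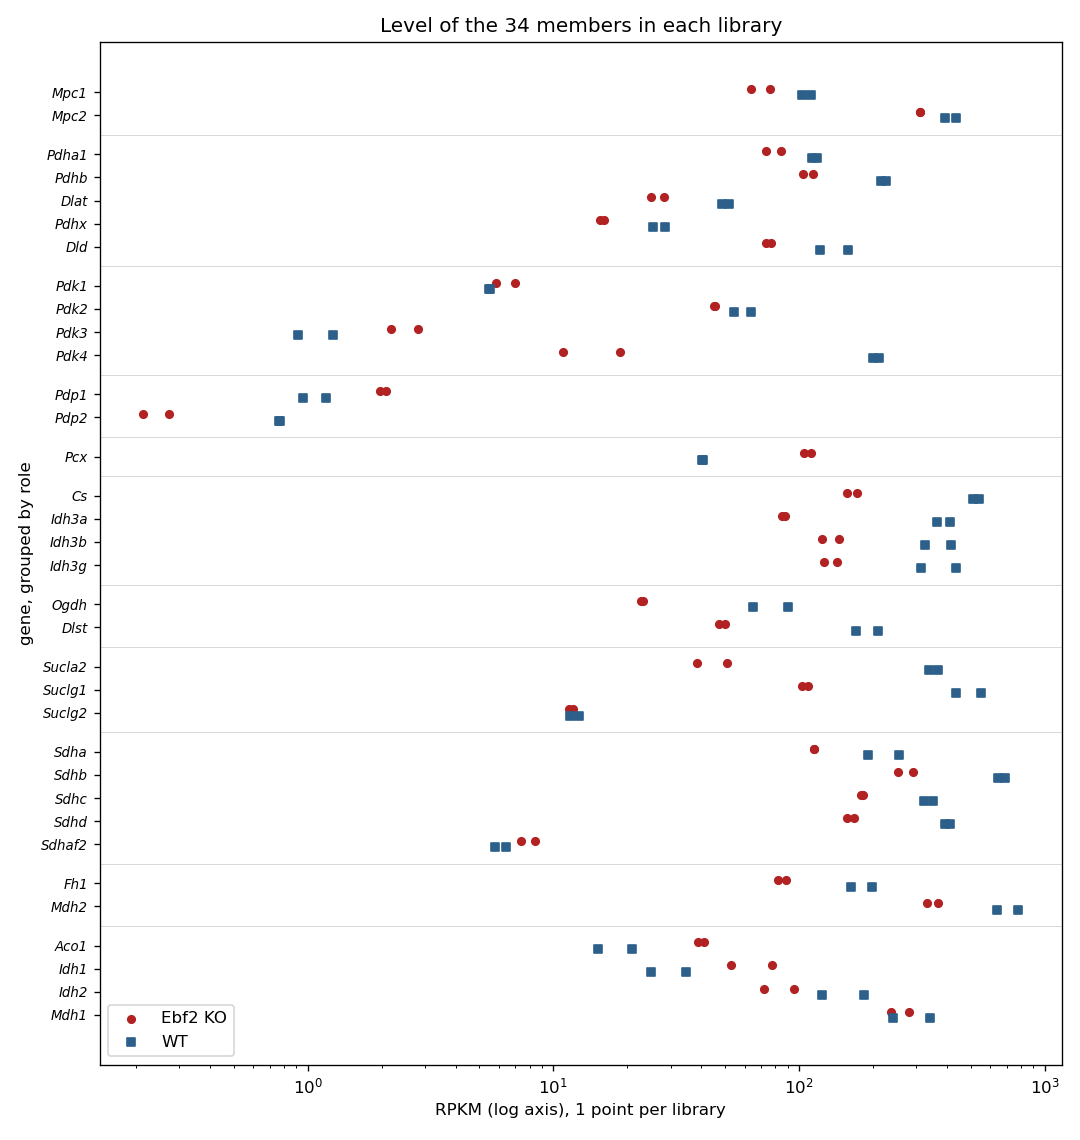
RPKM of the 34 members in each of the 4 libraries, on a log axis, with genes grouped by role; circles are Ebf2 KO libraries and squares are WT libraries (n = 2 each). For 25 genes both circles lie left of both squares, for 7 they lie right of them, and Suclg2 and Mdh1 overlap.

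These counts rested on both Ebf2 KO libraries. The members' median log2 fold change on RPKM was -0.89 with all libraries. It was -0.92 without Ebf2 KO replicate 2 and -0.83 without Ebf2 KO replicate 1. Omitting Ebf2 KO replicate 2 left 7 members that fell and 2 that rose, against 1.36% and 6.66% of all genes. On centred values the same omission left 8 and 0, against 5.98% and 6.13%. Omitting Ebf2 KO replicate 1 left 13 that fell and 3 that rose, against 2.52% and 17.5% of all genes, and on centred values 13 and 0, against 8.99% and 7.43%. Omitting WT replicate 1 left 19 and 3 (4.61% and 19.2% of all genes), and omitting WT replicate 2 left 22 and 4 (4.45% and 36.8%). Each of these fits assumes that the lone library varies like those of the other genotype. On RPKM, 7 members fell whichever library was left out, namely Cs, Idh3a, Ogdh, Dlst, Sucla2, Suclg1 and Pdk4, and Aco1 and Pcx rose whichever was left out. On centred values Cs did not pass without Ebf2 KO replicate 2 (log2 fold change -2.02). Neither Aco1 nor Pcx passed on centred values, whether all libraries were kept or any was left out.

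Pyruvate import is the work of a carrier built from the Mpc1 and Mpc2 proteins. Mpc1 was at 76.0 and 63.9 RPKM in Ebf2 KO, against 112 and 103 RPKM in WT. Mpc2 was at 312 and 311 RPKM in Ebf2 KO, against 436 and 392 RPKM in WT. Both were below WT in each Ebf2 KO library, but neither passed on RPKM (limma adjusted p = 0.0565 and 0.191). After centring Mpc1 passed (log2 fold change -1.14, limma adjusted p = 0.0389) and Mpc2 did not (0.141), while the authors' deposited table gave both as lower (FDR 0.00294 and 0.0175). The exons of Mpc1 overlap a noncoding gene on the opposite strand over 480 bases in GENCODE M21, and the strand setting of the counting is not known here.

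Pyruvate dehydrogenase lost RNA for 4 of its 5 subunits, by 1.71-fold to 2.02-fold. Pdhb, which with Pdha1 forms the decarboxylating component, was at 114 and 104 RPKM in Ebf2 KO, against 225 and 215 RPKM in WT (log2 fold change -1.01, SE 0.204, limma adjusted p = 0.0149). Dlat, the acetyltransferase core, was at 24.9 and 28.3 RPKM in Ebf2 KO, against 52.0 and 48.4 RPKM in WT. Pdhx, which ties the lipoamide dehydrogenase to that core, averaged 15.8 ± 0.353 RPKM in Ebf2 KO and 27.0 ± 2.07 RPKM in WT (SD, n = 2 each). Dld, the lipoamide dehydrogenase shared with 2-oxoglutarate dehydrogenase, averaged 75.2 ± 2.23 RPKM in Ebf2 KO and 140.2 ± 25.5 RPKM in WT (SD, n = 2 each). Dlat, Pdhx and Dld passed at limma adjusted p = 0.0184, 0.0327 and 0.0255.

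Pdha1 was the subunit that did not pass on RPKM. It was at 73.3 and 84.8 RPKM in Ebf2 KO, against 119 and 112 RPKM in WT (limma adjusted p = 0.0749), and it fell after centring (0.0428); the authors' deposited table gave it an FDR of 0.00476. Its reads could include some of Map3k15, a listed gene on the opposite strand whose exons overlap those of Pdha1 over 603 bases in GENCODE M21. Within a library the Pdha1 to Pdhb ratio was 0.640 and 0.818 in Ebf2 KO, against 0.527 and 0.522 in WT. Pdha1, Idh3g and Pdk3 are X-linked, and the part of the Xist difference between the Ebf2 KO libraries in their levels was not tested.

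The 4 pyruvate dehydrogenase kinases, which phosphorylate and shut off the complex, did not move together. Pdk4, the kinase known to be induced by fasting and fatty acids, was at 11.0 and 18.6 RPKM in Ebf2 KO, against 199 and 212 RPKM in WT. Both Ebf2 KO values were far below both WT values, and the log2 fold change was -3.75 (SE 0.264, limma adjusted p = 0.000714). Pdk2, the widely expressed isoform, was at 45.5 and 45.2 RPKM in Ebf2 KO, against 54.3 and 63.7 RPKM in WT. It did not pass on RPKM (limma adjusted p = 0.177) or after centring (0.0521), and the authors' deposited table gave it as lower (FDR 0.0155).

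Pdk1, a target of hypoxia signalling, was at 6.95 and 5.84 RPKM in Ebf2 KO, against 5.48 and 5.54 RPKM in WT (limma adjusted p = 0.559), a log2 difference of 0.18 on RPKM and of -0.34 after centring. Pdk3 was the lowest of the kinases, at 2.17 and 2.82 RPKM in Ebf2 KO, against 0.916 and 1.27 RPKM in WT. It did not pass (limma adjusted p = 0.0544, and 0.433 after centring).

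The make-up of the kinase RNA pool therefore differed between the genotypes. Pdk4 made up 16.7% and 25.7% of the summed Pdk RPKM in Ebf2 KO, against 76.7% and 75.0% in WT. Pdk2 made up 69.4% and 62.4% in Ebf2 KO, against 20.9% and 22.6% in WT, while its own level was below WT in both Ebf2 KO libraries. The sum of the 4 kinases was 65.6 and 72.5 RPKM in Ebf2 KO, against 260.1 and 282 RPKM in WT.

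**Figure D2:**
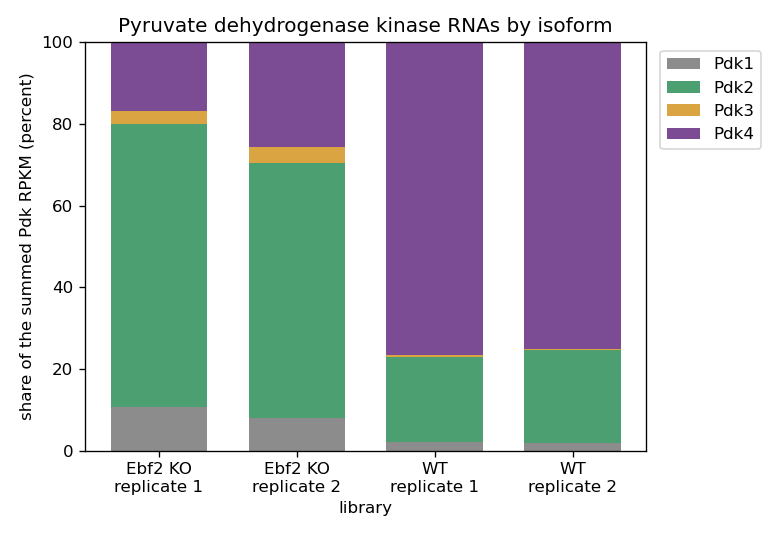
Share of the summed RPKM of the 4 pyruvate dehydrogenase kinases taken by each isoform, in percent, 1 bar per library. Pdk4 takes 16.7% and 25.7% of the bar in Ebf2 KO, against 76.7% and 75.0% in WT, and Pdk2 is the largest segment in both Ebf2 KO libraries.

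The phosphatases that reactivate the complex were among the least abundant members. Pdp1, the calcium-stimulated isoform, was at 1.96 and 2.08 RPKM in Ebf2 KO, against 0.957 and 1.18 RPKM in WT (limma adjusted p = 0.0925). Pdp2, the calcium-insensitive isoform, was at 0.274 and 0.214 RPKM in Ebf2 KO, against 0.775 and 0.764 RPKM in WT. Every listed gene reached at least 0.502 RPKM in some library, and Pdp2 did so in the WT libraries only, so its place in the table already required a difference of this direction. The fit gave a log2 fold change of -0.51 (SE 0.157, limma adjusted p = 0.0475), which is given as a description. Its mean was 3.15-fold lower, and the log2(RPKM + 1) scale understates such a change at this level. The call was lost with any 1 library left out (limma adjusted p from 0.0916 to 0.297), and Pdp2 passed after centring (0.00392), and the authors' deposited table gave an FDR of 0.000252. The ratio of Pdp1 to Pdp2 was 7.16 and 9.70 in Ebf2 KO, against 1.23 and 1.55 in WT.

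Kinase RNA outweighed phosphatase RNA in all 4 libraries. The sum of the kinases was 29.4 and 31.6 times that of Pdp1 and Pdp2 in Ebf2 KO, against 150.3 and 145 times in WT.

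Pcx, the enzyme that carboxylates pyruvate to oxaloacetate, went the other way from the dehydrogenase. It was at 105 and 112 RPKM in Ebf2 KO, against 40.6 and 40.4 RPKM in WT. The groups were far apart beside their spread, and the log2 fold change was 1.40 (SE 0.191, limma adjusted p = 0.00469). After centring it was 0.87 and did not pass (0.0702), while it passed with quantile normalization (0.0187). The authors' deposited table gave an FDR of 0.101 and a log2 change of 0.77. The ratio of Pcx to Pdha1, which does not depend on scaling, was 1.43 and 1.32 in Ebf2 KO, against 0.343 and 0.359 in WT. The carboxylase RNA was thus more abundant per length than that of the dehydrogenase subunit in the Ebf2 KO tissue, and less abundant in the WT tissue.

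The steps of the cycle that lead from oxaloacetate to 2-oxoglutarate lost RNA for all 4 members. Cs, citrate synthase, was at 173 and 157 RPKM in Ebf2 KO, against 513 and 539 RPKM in WT (log2 fold change -1.67, SE 0.221, limma adjusted p = 0.00428). Idh3a, the catalytic subunit of the NAD-dependent isocitrate dehydrogenase, was at 87.7 and 85.0 RPKM in Ebf2 KO, against 410.2 and 364 RPKM in WT (log2 fold change -2.15, SE 0.209, limma adjusted p = 0.00172). Its partners Idh3b and Idh3g fell 2.75-fold and 2.79-fold (limma adjusted p = 0.00773 and 0.00842). Idh3b was at 146 and 124 RPKM in Ebf2 KO, against 325 and 417 RPKM in WT. Idh3g was at 142 and 127 RPKM in Ebf2 KO, against 315 and 434 RPKM in WT.

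Idh3a was thus lower relative to its partners. The Idh3a to Idh3b ratio was 0.602 and 0.683 in Ebf2 KO, against 1.26 and 0.871 in WT, and the Idh3a to Idh3g ratio was 0.616 and 0.672 in Ebf2 KO, against 1.30 and 0.838 in WT.

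The 2-oxoglutarate dehydrogenase genes fell by a similar amount. Ogdh, the decarboxylase, was at 23.3 and 22.8 RPKM in Ebf2 KO, against 65.0 and 90.4 RPKM in WT (log2 fold change -1.69, SE 0.223, limma adjusted p = 0.00427). Dlst, the succinyltransferase core, was at 50.1 and 47.4 RPKM in Ebf2 KO, against 171 and 209 RPKM in WT (log2 fold change -1.93, SE 0.207, limma adjusted p = 0.00243). Their falls of 3.38-fold and 3.90-fold stood beside 1.87-fold for Dld, which the complex shares with pyruvate dehydrogenase.

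Succinyl-CoA ligase was split between its subunits. The enzyme pairs the shared alpha subunit Suclg1 with Sucla2 to make ATP or with Suclg2 to make GTP. Sucla2 was at 38.5 and 51.1 RPKM in Ebf2 KO, against 369 and 339.5 RPKM in WT (log2 fold change -2.97, SE 0.224, limma adjusted p = 0.000838). Suclg1 was at 103 and 109 RPKM in Ebf2 KO, against 434 and 552 RPKM in WT (log2 fold change -2.19, SE 0.228, limma adjusted p = 0.00221). Suclg2 was at 12.0 and 11.6 RPKM in Ebf2 KO, against 11.7 and 12.7 RPKM in WT.

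The groups overlapped for Suclg2, and it did not pass on RPKM (log2 fold change -0.04, SE 0.207, limma adjusted p = 0.875) or after centring (-0.57, 0.121). The authors' deposited table gave an FDR of 0.0951 and a log2 change of -0.69. Within a library Sucla2 was 3.20 and 4.42 times Suclg2 in Ebf2 KO, against 31.5 and 26.7 times in WT. Suclg2 made up 23.8% and 18.5% of the 2 beta subunit RNAs in Ebf2 KO, against 3.07% and 3.61% in WT.

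Succinate dehydrogenase, which is also complex II of the respiratory chain, lost RNA for all 4 subunits, by 1.88-fold to 2.48-fold. Sdhb, the iron-sulfur subunit, was at 291 and 252 RPKM in Ebf2 KO, against 648 and 687 RPKM in WT (log2 fold change -1.30, SE 0.238, limma adjusted p = 0.0109). Sdhd, a membrane anchor, was at 168 and 157 RPKM in Ebf2 KO, against 412 and 393 RPKM in WT (log2 fold change -1.30, SE 0.215, limma adjusted p = 0.00805). Sdha, the flavoprotein, was at 115 and 115 RPKM in Ebf2 KO, against 191 and 256 RPKM in WT (limma adjusted p = 0.0246). Sdhc, the other anchor, was at 181 and 178 RPKM in Ebf2 KO, against 323 and 351 RPKM in WT (limma adjusted p = 0.0230).

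Sdhaf2, the factor that helps attach the flavin to Sdha, did not follow the subunits. It was at 7.35 and 8.43 RPKM in Ebf2 KO, against 5.76 and 6.41 RPKM in WT, and did not pass (limma adjusted p = 0.285). Its log2 difference was 0.33 on RPKM and -0.20 after centring, so its sign depended on scaling. Its exons overlap those of Cpsf7, on the opposite strand, over 94 bases in GENCODE M21.

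Fumarase and mitochondrial malate dehydrogenase close the cycle. Fh1 was at 88.2 and 81.8 RPKM in Ebf2 KO, against 162 and 199 RPKM in WT (log2 fold change -1.07, SE 0.212, limma adjusted p = 0.0139). Mdh2 had the highest mean RPKM of the members in both genotypes, although Sdhb was above it in WT replicate 1. It was at 368 and 332 RPKM in Ebf2 KO, against 639 and 779.8 RPKM in WT (log2 fold change -1.01, SE 0.251, limma adjusted p = 0.0260). Their falls were 2.12-fold and 2.03-fold.

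Of the 21 genes for subunits of pyruvate dehydrogenase and the mitochondrial cycle enzymes, with Sdhaf2, 18 fell on RPKM, 19 after centring and 19 by the authors' deposited table. Over all genes the shares that fell were 3.54%, 10.3% and 10.5%. The falls ran from 1.71-fold to 2.02-fold in pyruvate dehydrogenase and from 2.75-fold to 4.48-fold between oxaloacetate and 2-oxoglutarate. They ran from 3.38-fold to 7.90-fold in Ogdh, Dlst, Suclg1 and Sucla2, and from 1.88-fold to 2.48-fold from succinate to oxaloacetate. These ranges hold only members that fell on RPKM, with Dld placed in pyruvate dehydrogenase. They leave out Pdha1 (1.46-fold lower), Suclg2 (1.03-fold lower) and Sdhaf2 (1.30-fold higher).

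**Figure D3:**
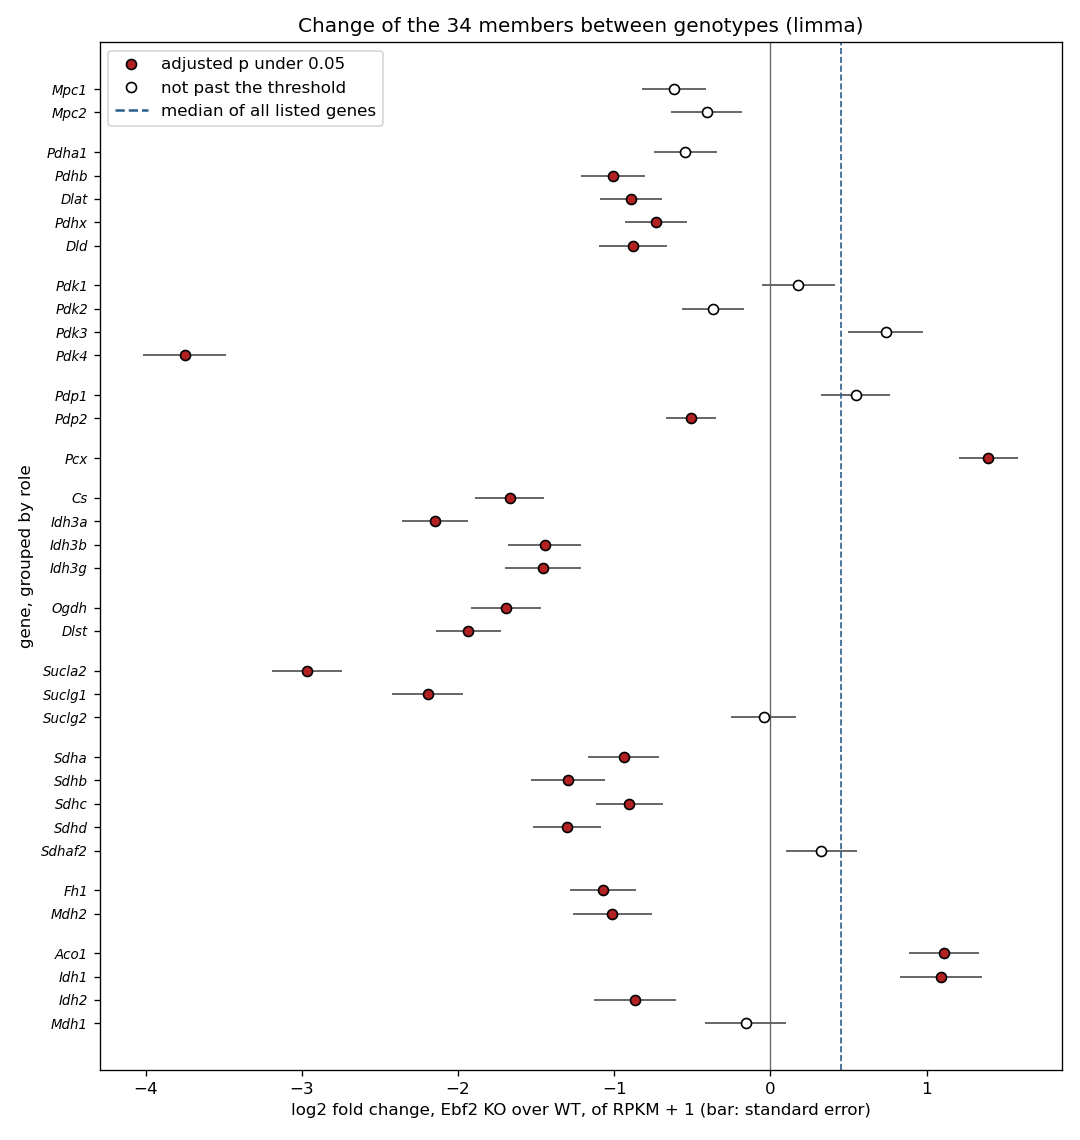
Log2 fold change of Ebf2 KO over WT on log2(RPKM + 1) for the 34 members, with the standard error from limma as bars (n = 2 libraries each) and the median of all listed genes, 0.45, as a dashed line. Pdk4 at -3.75 and Sucla2 at -2.97 lie farthest left, and Pcx at 1.40, Aco1 at 1.11 and Idh1 at 1.09 are the filled points right of 0.

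Of the 4 cytosolic and NADP-dependent counterparts, 2 rose (Aco1 and Idh1), 1 fell (Idh2) and 1 (Mdh1) did not pass on RPKM, and after centring 0 rose and 1 fell. Aco1, the cytosolic aconitase that also acts as an iron-responsive RNA-binding protein, was at 40.9 and 38.6 RPKM in Ebf2 KO, against 20.9 and 15.2 RPKM in WT (log2 fold change 1.11, SE 0.221, limma adjusted p = 0.0141). Idh1, the cytosolic NADP-dependent isocitrate dehydrogenase, was at 52.9 and 77.7 RPKM in Ebf2 KO, against 34.8 and 25.1 RPKM in WT (log2 fold change 1.09, SE 0.262, limma adjusted p = 0.0238). Both rises were lost after centring (limma adjusted p = 0.217 and 0.268) and the authors' deposited table gave an FDR of 0.421 and 0.473. The rise of Idh1 was also lost when Ebf2 KO replicate 2 was left out (limma adjusted p = 0.138).

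Idh2, the mitochondrial NADP-dependent isocitrate dehydrogenase, was at 72.2 and 95.0 RPKM in Ebf2 KO, against 125 and 185 RPKM in WT. It fell on RPKM (log2 fold change -0.87, SE 0.263, limma adjusted p = 0.0451) and after centring (-1.39, 0.0142). The call on RPKM was lost without Ebf2 KO replicate 1 (limma adjusted p = 0.190) or Ebf2 KO replicate 2 (0.0898). It also narrowly missed the threshold with a pseudocount of 0.1, when genes averaging under 5 RPKM were dropped (0.0503) and without the variance trend (0.0555). Mdh1, the cytosolic malate dehydrogenase, was at 281 and 237 RPKM in Ebf2 KO, against 343 and 242 RPKM in WT. These ranges overlapped, and Mdh1 did not pass on RPKM (limma adjusted p = 0.641) or after centring (0.301). The exons of Mdh1 overlap those of Wdpcp on the opposite strand over 52 bases in GENCODE M21.

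Ratios of mitochondrial to cytosolic members were lower in both Ebf2 KO libraries. Idh2 with Idh1 and Mdh2 with Mdh1 are pairs of isoforms, while Cs and Aco1 are different enzymes. The Idh2 to Idh1 ratio was 1.36 and 1.22 in Ebf2 KO, against 3.58 and 7.37 in WT. The Mdh2 to Mdh1 ratio was 1.31 and 1.40 in Ebf2 KO, against 1.86 and 3.23 in WT. Cs, the mitochondrial citrate synthase, was 4.22 and 4.06 times Aco1 in Ebf2 KO, against 24.5 and 35.4 times in WT.

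All 13 ratios computed between members separated the genotypes without overlap, 9 being lower and 4 higher in Ebf2 KO. None of them depends on how libraries are scaled. The share of all gene pairs that separate in this way was not computed. Among single genes 9.3% lay below WT and 65.4% above without overlap. Several pairs share genes and some include Pdp2, so the count is a description only. The smallest gap was in the Mpc1 to Mpc2 ratio, at 0.244 and 0.205 in Ebf2 KO, against 0.257 and 0.263 in WT. The Pdk1 to Pdk2 ratio was 0.153 and 0.129 in Ebf2 KO, against 0.101 and 0.0870 in WT. With 2 libraries against 2 an exact two-sided permutation test cannot go below p = 0.333, the value of each ratio, also after adjustment over the 13, so that test can give no significant call here.

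**Figure D4:**
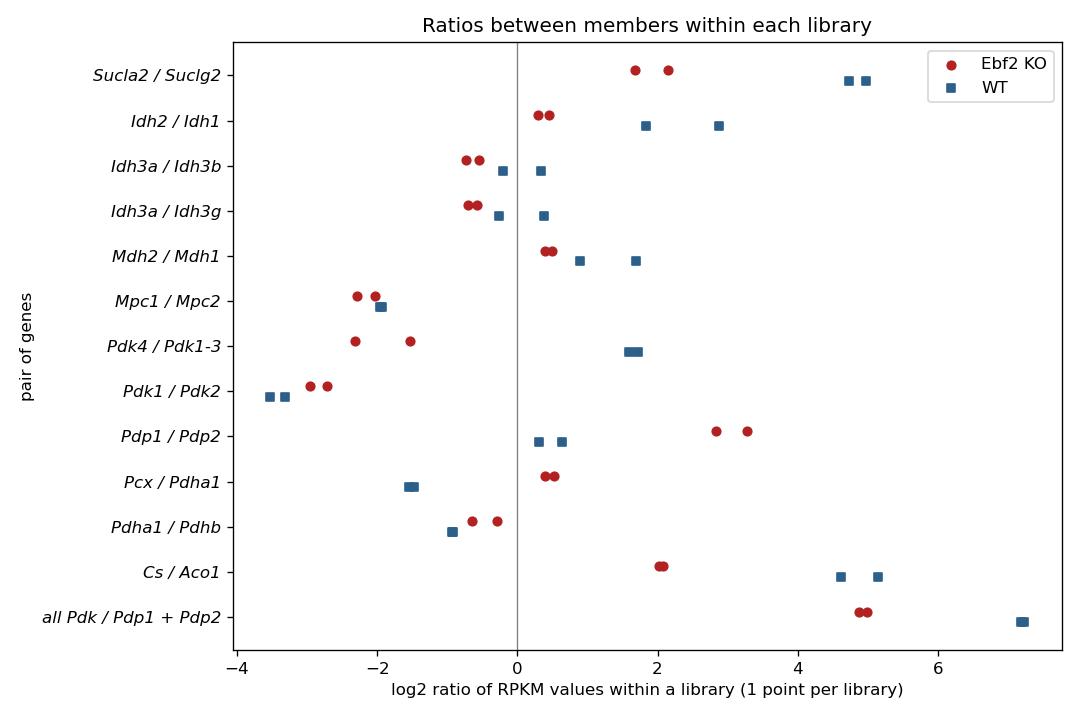
Log2 ratio of the RPKM of 2 members, or of sums of members, within each library, for 13 pairs; circles are Ebf2 KO libraries and squares are WT libraries (n = 2 each). The pairs Pdk4 over Pdk1 to Pdk3, Sucla2 over Suclg2 and Cs over Aco1 show the widest gaps, with Ebf2 KO minus WT differences of -3.58, -2.95 and -2.83 on the log2 scale.

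Other genes of mitochondrial carbon metabolism were taken from a list of 32, of which 27 were listed. On RPKM 7 fell, 5 rose and 15 passed in neither direction, against 3.54% lower and 24.4% higher over all genes. The 5 of 27 that rose were thus a smaller share than over all genes. After centring 9 fell and 4 rose, against 10.3% and 8.42% over all genes. Ldhb and Mrps36 were among those that fell with the smallest p. Ldhb, a lactate dehydrogenase subunit, was at 42.4 and 30.0 RPKM in Ebf2 KO, against 266 and 292 RPKM in WT (limma adjusted p = 0.000940). Mrps36, now known as a subunit that joins the parts of 2-oxoglutarate dehydrogenase, was at 38.9 and 41.1 RPKM in Ebf2 KO, against 155 and 148 RPKM in WT (limma adjusted p = 0.00206).

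The 3 that rose with the smallest p were Slc25a10, Me1 and Slc25a1. Slc25a10, the dicarboxylate carrier, was at 72.4 and 52.8 RPKM in Ebf2 KO, against 7.03 and 6.37 RPKM in WT (log2 fold change 3.03, SE 0.227, limma adjusted p = 0.000835). Me1, the cytosolic malic enzyme, was at 27.2 and 26.2 RPKM in Ebf2 KO, against 7.12 and 6.81 RPKM in WT (limma adjusted p = 0.00280). Slc25a1, the citrate carrier, was at 261 and 132 RPKM in Ebf2 KO, against 53.8 and 33.1 RPKM in WT (limma adjusted p = 0.00903). These 3 rises also passed after centring (limma adjusted p = 0.000557, 0.00691 and 0.0372) and had an FDR of 2.03e-09, 0.00113 and 0.00833 by the authors' deposited table. By voom on recovered reads Slc25a1 did not pass (limma adjusted p = 0.0849).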

How the data were processed

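Brown adipose tissue RNA of 2 Ebf2 KO and 2 WT libraries was used, grouped by the labels. STAR, edgeR and mm9 are named in the submitters' processing notes, with no versions; the counting tool, annotation and strand setting were not found in the labels or file. The authors deposited RPKM for each library and a mean RPKM for each genotype, per the file headers. The authors' comparison columns, per the file headers, hold a p-value, its FDR, a log2 fold change (KO over WT) and a mean log2 CPM. Each listed gene reached at least 0.502 RPKM in a library, so the 34 members are those expressed above that level somewhere.

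The test was limma 3.58.1 in R 4.3.3 on log2(RPKM + 1) of all 12165 genes, with genotype as the term, a trended variance prior, Benjamini-Hochberg adjustment over all genes and a threshold of 0.05. This scale understates changes of genes near 1 RPKM. Fold values are ratios of mean RPKM. Reads and library totals were recovered from the RPKM values, which came out whole within 1e-06 reads for all 12165 genes; the smallest solution was taken, so read numbers are lower bounds. The script was also run on simulated data that held no shift between libraries, and the outcome is not reported here.

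The members and lists were chosen with earlier results of these data known. By rule, the text names Ebf2 and Ucp1, every member, and of the neighbouring genes the 3 with the smallest p in each direction, of which 1 is not reported here; Xist was named after its values were seen. Alternatives were centred and quantile scaling, a pseudocount of 0.1, a mean of at least 5 RPKM, no variance trend, an adjusted p under 0.01, a replicate block, each library left out, voom on recovered reads and the deposited test. Centring with a library left out was added after the data were seen.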

Additional observations from a re-analysis of the deposited data

How the results depend on the processing

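Members called lower numbered 19 to 25 at the 0.05 threshold under every scaling, pseudocount, filter, variance prior and test tried with all 4 libraries (of 34 members, or of 31 when genes averaging under 5 RPKM were dropped), and 10 at an adjusted p under 0.01. Members called higher, 3 on RPKM, numbered 0 after centring, by voom and in the authors' deposited table, 1 under quantile scaling and 1 at an adjusted p under 0.01. The members' median log2 fold change was -1.41 after centring, -1.21 under quantile scaling, -1.57 in the authors' deposited table and -1.58 by voom. Over all genes, 1253 were lower and 1024 higher after centring, 1010 and 1048 under quantile scaling, 1022 and 966 by voom, and 1277 and 1325 in the authors' deposited table. At an adjusted p under 0.01 these counts were 145 and 565, and 1717 of the 5476 genes left by the 5 RPKM filter were higher. Neighbouring genes numbered 11 lower and 3 higher under quantile scaling, 12 and 3 in the authors' deposited table, 2 higher by voom and 3 at an adjusted p under 0.01.

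Leaving out 1 library, on RPKM or centred values, gave 7 to 23 members lower and 0 to 4 higher, a median of -1.53 to -0.83, 2 to 6 neighbouring genes higher, and 166 to 1094 genes lower and 415 to 4477 higher over all genes. Replicates share only a number (their deviations correlated at 0.348, with 2 pairs). With the replicate block, 23 members were lower and 5 higher, 9 neighbouring genes were higher, and over all genes 746 were lower and 6325 higher.

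No called member changed sign. Among members not called, Sdhaf2 was at -0.20 after centring, -0.21 under quantile scaling, -0.27 in the authors' deposited table and -0.30 by voom, and Pdk1 at -0.34, -0.35, -0.42 and -0.46 in the same order. With 1 library left out, Sdhaf2 ranged from -0.31 to 0.41, Pdk1 from -0.55 to 0.29, Pdp1 from -0.073 to 0.63, Suclg2 from -0.70 to 0.013 and Mdh1 from -1.11 to 0.092. With 1 added to the RPKM of each gene, the log2 difference in the Pdp1 to Pdp2 ratio was 1.05, against 2.59, and that in the kinase to phosphatase ratio -2.07, against -2.28. Beyond the scaling choices themselves, the cause of these shifts was not tested. With 2 libraries a genotype, changes near 2-fold were called or not depending on which library was present. Some larger changes were too. On RPKM, Sdhb (2.46-fold), Sdhd (2.48-fold), Idh3b (2.75-fold) and Idh3g (2.79-fold) were not called without Ebf2 KO replicate 2. Their log2 fold changes were then -1.19, -1.26, -1.33 and -1.37. Pdp2 (3.15-fold) was not called with any 1 library left out.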
